A study of Mus musculus with 4 samples.

Results

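The genes described are 9 matrix metalloproteases, Mmp2, Mmp3, Mmp8, Mmp9, Mmp10, Mmp11, Mmp12, Mmp13 and Mmp14, and the inhibitor Timp1. They were taken by symbol, 10 of the 52535 gene models counted in each library, and all 10 were found and passed the filter on low counts. Gene expression was measured by RNA sequencing of mouse pancreatic duct cells, with 2 libraries in each group. The wild-type group (WT 1 and WT 2) came from C57BL/6 mice. The group labelled knockout (KO 1 and KO 2) came from mice of the same strain whose genotype joins floxed Lats1 and floxed Lats2, fl/fl at both, with Sox9-CreER. Lats1 and Lats2 are Hippo pathway kinases that hold back YAP and TAZ, which switch genes on together with TEAD factors. CreER is a recombinase that tamoxifen switches on, here expressed where Sox9 is, which in the pancreas includes the ducts. The sources used here do not state how duct cells were obtained, how old the mice were, when Cre was induced, or whether wild-type mice carried floxed alleles or were given tamoxifen.

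Matrix metalloproteases are zinc enzymes, secreted or anchored in the cell membrane, that cut collagens, elastin, laminins and many non-matrix proteins. Most are made as inactive precursors whose propeptide must be removed, by plasmin, by furin-type convertases inside the cell or by another metalloprotease. TIMP proteins bind the active site and block it. In the pancreas these genes are known from pancreatitis, fibrosis and the stroma of pancreatic cancer, where fibroblasts, macrophages, neutrophils and epithelial cells can each make some of them.

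Libraries held between 3566387 and 5925601 counts, and 3 counts in a library corresponded to between 0.486 and 0.824 CPM (counts scaled to library size, here with TMM factors). The 10 genes had 787 and 950 counts in WT 1 and WT 2 and 8727 and 10251 in KO 1 and KO 2. Lats1, at 50.8 and 65.6 CPM in wild type and 70.0 and 79.2 CPM in the libraries labelled knockout, and Lats2, at 114 and 102 against 163 and 121 CPM, were not lower in the latter (edgeR adjusted p = 0.172 and 0.127). Counts cover whole gene models and cannot show whether the floxed exons were lost, so groups keep the names on their labels. The duct label could be checked only in part. Krt19, Krt8 and Sox9 had counts in every library. The 12 duct markers summed to 2121 and 2613 CPM in wild type and to 15262 and 15431 CPM in the libraries labelled knockout. Of these markers 9 rose and none fell, which compares the groups and does not show what cells a library held. Acinar markers summed to 47942 and 86614 CPM in wild type and to 158 and 3568 CPM in the libraries labelled knockout. T and NK cell markers summed to 1140 and 1206 against 46.3 and 21.9 CPM.

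Of the genes described, 5 lie in 1 cluster. Mmp13, Mmp12, Mmp3, Mmp10 and Mmp8 stand on chromosome 9 (mm10) between 7272514 and 7699585, a stretch of 427 kb that holds 10 metalloprotease genes in all. For each gene the 250 bases before the start annotated by RefSeq (build GRCm38.p6) were searched on both strands. Matches were found by symbol for 8 of the 10 genes, all but Mmp2 and Mmp9. The AP-1 letters TGAGTCA were in 4 of these 8, namely Mmp3, Mmp10, Mmp13 and the second of the 2 annotated starts of Mmp12. They were in 7 of the 10 cluster genes, against 4.46% of 32851 promoters of the same length. A gene was counted if any of its annotated starts matched, while the shares here are per promoter, so they are not the same measure. Related genes in 1 cluster, such as the similar copies Mmp1a and Mmp1b, may share promoter letters and are not independent of each other. The letters TATAAA were in 3 of the 8, namely Mmp3, Mmp10 and Mmp13, and in 12.4% of all promoters. The TEAD letters GGAATG were in Timp1 alone, and in 12.6% of all. The ETS letters AGGAAG were in 6 of the 8 and in 29.5% of all. No motif overlapped another of these in the sequences printed. A match describes the letters and does not show a bound site.

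Shown here, 5′ to 3′ on the gene's strand, are Mmp13, Mmp10 and Mmp3, cluster genes that rose, then Mmp1a, their neighbour with 0 counts in every library, and Timp1. Capitals mark the AP-1, TATAAA and TEAD letters, and in Mmp13 the AP-1 letters lie on the other strand and so appear as their reverse complement. All 5 lie on the + strand, at chr9:7272264-7272513 (Mmp13), chr9:7502092-7502341 (Mmp10), chr9:7445572-7445821 (Mmp3), chr9:7463891-7464140 (Mmp1a) and chrX:20869916-20870165 (Timp1).
Mmp13: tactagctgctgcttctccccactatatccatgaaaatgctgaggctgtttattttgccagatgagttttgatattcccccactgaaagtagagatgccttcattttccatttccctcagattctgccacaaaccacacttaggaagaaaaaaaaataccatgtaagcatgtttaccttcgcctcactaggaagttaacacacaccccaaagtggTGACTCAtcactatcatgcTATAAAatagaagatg
Mmp10: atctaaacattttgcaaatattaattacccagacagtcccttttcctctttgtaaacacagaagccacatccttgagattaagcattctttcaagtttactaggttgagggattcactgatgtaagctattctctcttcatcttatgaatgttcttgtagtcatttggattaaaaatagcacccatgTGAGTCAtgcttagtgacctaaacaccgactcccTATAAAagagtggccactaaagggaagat
Mmp3: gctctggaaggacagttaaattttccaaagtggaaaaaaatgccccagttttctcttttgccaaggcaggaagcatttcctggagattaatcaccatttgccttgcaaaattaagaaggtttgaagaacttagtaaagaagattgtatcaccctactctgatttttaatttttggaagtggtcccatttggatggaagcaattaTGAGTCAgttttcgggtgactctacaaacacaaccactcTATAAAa
Mmp1a: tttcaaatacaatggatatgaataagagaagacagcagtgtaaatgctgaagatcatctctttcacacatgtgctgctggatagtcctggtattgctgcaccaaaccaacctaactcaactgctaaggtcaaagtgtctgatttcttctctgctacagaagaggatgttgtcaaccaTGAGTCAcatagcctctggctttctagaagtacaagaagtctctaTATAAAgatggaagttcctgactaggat
Timp1: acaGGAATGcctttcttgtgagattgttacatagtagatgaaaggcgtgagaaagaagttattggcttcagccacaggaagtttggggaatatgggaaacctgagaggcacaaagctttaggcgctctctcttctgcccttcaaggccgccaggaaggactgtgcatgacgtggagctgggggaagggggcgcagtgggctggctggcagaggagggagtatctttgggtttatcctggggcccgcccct
The AP-1 letters began 35 bases before the start in Mmp13, 63 in Mmp10, 46 in Mmp3 and 73 in Mmp1a, counting the base just before the start as 1. Mmp1a, undetected here, held the same AP-1 letters as these neighbours that rose. TATAAA began 28 bases before its start, against 16 in Mmp13, 29 in Mmp10 and 7 in Mmp3. All these distances depend on the annotated starts. GENCODE M21 lists Mmp1a as a polymorphic pseudogene, and reads that fit both it and Mmp1b may have been dropped. Whether the letters bear on the levels of these genes was not tested. In Timp1 the TEAD letters began 247 bases before the start.

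Of the 10 genes, 8 rose in the libraries labelled knockout, none fell, and Mmp9 and Mmp12 did not pass (edgeR's quasi-likelihood test, Benjamini-Hochberg adjusted over all genes, threshold 0.05). Mmp8, Mmp10, Mmp11, Mmp12 and Mmp13 passed the filter on low counts only through the libraries labelled knockout. A fall could hardly have been called in these genes. The lack of falls, and the count and median below, partly follow from that. Among all 13990 genes tested, 22.0% rose, 20.2% fell and 42.2% changed in either direction. In 9 of the 10 genes both libraries labelled knockout lay above both wild-type libraries, which held for 37.4% of all genes tested. The median log2 fold change (knockout-labelled minus wild type) was 3.41 over the 10 genes and -0.01 over all genes tested. Setting Mmp13 to its lower bound could not move the median, as that bound still lay above it. With upper quartile scaling in place of TMM the median of all genes moved to -0.20 and higher genes made up 39.4% of those changed instead of 52.1%, but the same count of 8 of the 10 rose. No source says that replicates were different animals. The p-values therefore reflect only how far these libraries spread, which may be technical. In bulk RNA more cells of a type and more RNA per cell cannot be told apart.

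**Figure D1:**
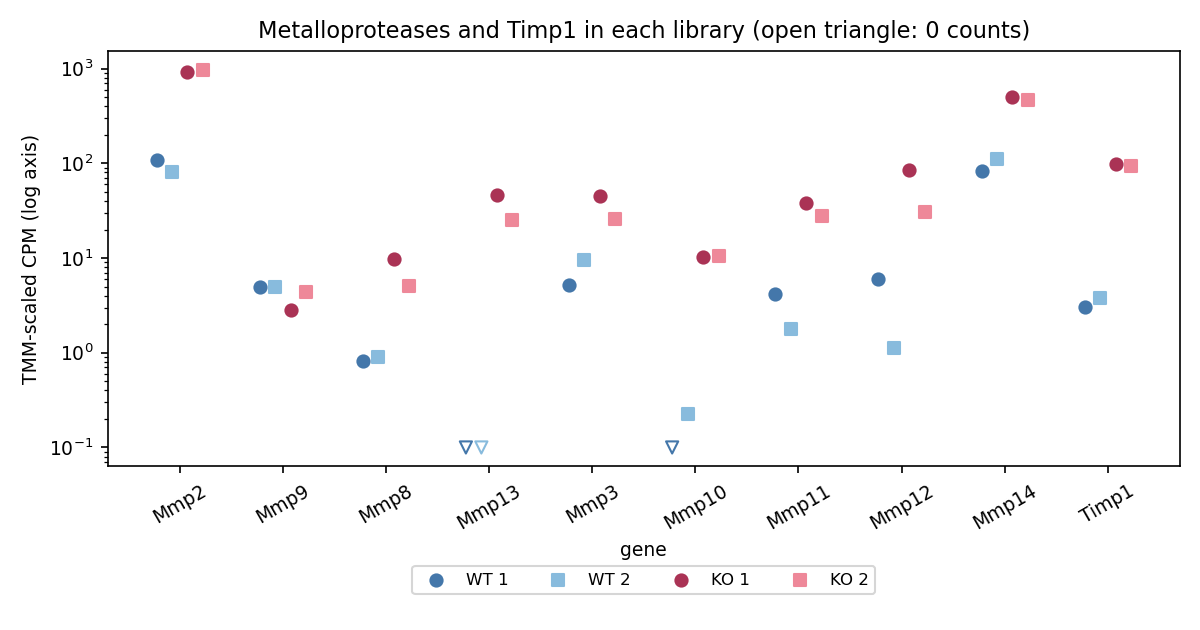
TMM-scaled CPM (log axis) of the 9 metalloproteases and Timp1 in each of the 4 libraries, with an open triangle where a library had 0 counts. The points of KO 1 and KO 2 lie above those of WT 1 and WT 2 for every gene drawn except Mmp9.

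The gelatinases cut denatured collagen and the type IV collagen of basement membranes. Mmp2 (chromosome 8, 92827291 to 92853420), gelatinase A, stood at 109 CPM (WT 1), 80.9 CPM (WT 2), 914 CPM (KO 1) and 974 CPM (KO 2). The groups were far apart and each pair close together. Mmp2 rose 9.98-fold, from 94.7 ± 19.5 to 944 ± 42.4 CPM (SD, n = 2), a log2 fold change of 3.32 ± 0.21 SE (edgeR adjusted p = 1.72e-05). Mmp9 (chromosome 2, 164940780 to 164955850), gelatinase B, which neutrophils store in granules and macrophages secrete, behaved otherwise. Its counts were 18 and 22 in wild type and 14 and 27 in the libraries labelled knockout, or 4.95 and 4.94 against 2.82 and 4.37 CPM. It was low in all 4 libraries. Its log2 difference was -0.45 ± 0.46 SE (edgeR adjusted p = 0.465), and the ratio of pooled counts was 0.744 with a 95% exact binomial interval of 0.469 to 1.18, which covers counting error only.

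Collagenases open the triple helix of fibrillar collagen. Mmp13 (chromosome 9, 7272514 to 7283331), collagenase 3, had 0 counts in both wild-type libraries and 229 and 155 counts in KO 1 and KO 2, which is 46.1 and 25.1 CPM. It was thus detected in the libraries labelled knockout only. Against a floor of 3 counts over both wild-type libraries together it was at least 92.9-fold higher (edgeR adjusted p = 0.000197). This bound covers counting error only. Mmp8 (chromosome 9, 7558456 to 7568485), named neutrophil collagenase after the cells it was first found in, had 3 and 4 counts in wild type and 48 and 31 in KO 1 and KO 2. These are 0.824 and 0.899 CPM against 9.66 and 5.02 CPM, low in both groups without overlap. It rose 8.21-fold, with a log2 fold change of 3.04 ± 0.60 SE (edgeR adjusted p = 0.0044), but did not pass without KO 1 (2.51, edgeR adjusted p = 0.0688).

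Neutrophil markers were mixed, and their part in the levels of Mmp8 was not tested. Of 12 such markers 4 were tested. Csf3r, the receptor for granulocyte colony-stimulating factor, rose 4.15-fold, from 2.75 and 4.27 to 18.1 and 11.7 CPM (edgeR adjusted p = 0.00424). S100a9 and Ltf fell and S100a8 did not pass, while the other 8 had too few counts to be tested. The summed level of the 12 was 236 and 122 CPM in wild type, most of it Ltf, which epithelial cells also make, and 34.2 and 26.1 CPM in the libraries labelled knockout. Without Ltf it was 36.6 and 20.7 against 28.0 and 13.4 CPM, and the groups overlapped. Ly6g, which defines mouse neutrophils, had 2 counts in WT 1 and 0 in the other 3 libraries. Elane, an elastase of neutrophil granules, had 12, 4, 4 and 0 counts in WT 1, WT 2, KO 1 and KO 2.

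Stromelysins cut proteoglycans, laminin and fibronectin and can activate other metalloproteases. Mmp3 (chromosome 9, 7445822 to 7455975), stromelysin 1, stood at 5.22 CPM (WT 1), 9.44 CPM (WT 2), 45.1 CPM (KO 1) and 25.9 CPM (KO 2). The lower of the libraries labelled knockout was above the higher wild-type library. Mmp3 rose 4.76-fold (log2 fold change 2.25 ± 0.38 SE, edgeR adjusted p = 0.00234). Mmp10 (chromosome 9, 7502352 to 7510240), stromelysin 2, known from migrating epithelial cells at wound edges, had 0 and 1 counts in wild type and 51 and 65 in KO 1 and KO 2. KO 1 and KO 2 were alike, at 10.3 and 10.5 CPM. The ratio of pooled counts was 84.2 (95% exact binomial interval 14.8 to 3353, edgeR adjusted p = 0.000325). With 1 count in wild type its fitted log2 fold change of 6.13 was 5.40 without WT 1 and 8.68 without WT 2.

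Mmp11 (chromosome 10, 75923222 to 75936496), named stromelysin 3 but activated inside the cell by furin, is known as a gene of tumour fibroblasts. It had 15 and 8 counts in wild type and 189 and 173 in KO 1 and KO 2, or 4.12 and 1.80 against 38.0 and 28.0 CPM. The groups did not overlap. Mmp11 rose 11.3-fold (log2 fold change 3.50 ± 0.40 SE, edgeR adjusted p = 0.000254), and the change was 4.19 without WT 1. Its model overlaps that of Chchd10 on the opposite strand. Chchd10 had 147 and 61 counts in wild type and 74 and 71 in the libraries labelled knockout, with no rise like that of Mmp11.

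Mmp12 (chromosome 9, 7344381 to 7369499), the elastase of macrophages, varied most between replicates. It stood at 6.05 CPM (WT 1), 1.12 CPM (WT 2), 85.5 CPM (KO 1) and 30.4 CPM (KO 2). The groups did not overlap, but within each group 1 library was well above the other. Its log2 difference of 4.06 ± 1.04 SE did not pass (edgeR adjusted p = 0.0615). Single libraries moved it, to 5.67 without WT 1, 3.25 without WT 2, 3.12 without KO 1 and 4.65 without KO 2, and it did not pass in any of these fits. DESeq2's Wald test called it (DESeq2 adjusted p = 0.00462), with a log2 difference of 4.02. Most macrophage markers were also higher in the libraries labelled knockout. Of 15 markers 13 rose, Marco, a scavenger receptor of some resident macrophages, fell, and Cd163 did not pass. Their summed level was 829 CPM (WT 1), 748 CPM (WT 2), 7277 CPM (KO 1) and 5117 CPM (KO 2). Their part in the levels of Mmp12 was not tested.

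Mmp14 (chromosome 14, 54431612 to 54445364) is a membrane-anchored metalloprotease that cuts fibrillar collagen at the cell surface and, with TIMP2, activates MMP2 there. It stood at 83.5 CPM (WT 1), 110 CPM (WT 2), 507 CPM (KO 1) and 461 CPM (KO 2). It was already well above the floor in wild type, and the groups were clearly apart. Mmp14 rose 4.99-fold, from 96.9 ± 19.0 to 484 ± 32.0 CPM (SD, n = 2), a log2 fold change of 2.32 ± 0.19 SE (edgeR adjusted p = 5.34e-05).

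Timp1 (chromosome X, 20870166 to 20874735) encodes a secreted inhibitor of most metalloproteases that blocks membrane-anchored MMP14 only weakly and is known as a marker of fibrosis. It had 11 and 17 counts in wild type and 486 and 582 in KO 1 and KO 2. These are 3.02 and 3.82 CPM against 97.8 and 94.2 CPM, with little spread within either group. Timp1 rose 27.6-fold, a log2 fold change of 4.79 ± 0.24 SE (edgeR adjusted p = 1.18e-05). Its model overlaps that of Syn1, which is on the opposite strand and had 39, 61, 14 and 18 counts in WT 1, WT 2, KO 1 and KO 2. Syn1 counts were thus lower where Timp1 was higher.

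To compare genes with each other, CPM were divided by the length of each gene's merged exons in GENCODE M21. Merging exons of all transcripts gives long lengths to genes with many, 7237 bases for Mmp12 and 5960 for Mmp14, with 7 transcripts each. Mmp3, Mmp8, Mmp10 and Mmp13 have 1 transcript and 1722 to 2673 bases, and Timp1 has 888 bases. Levels of genes with many transcripts may thus read low, and the order depends on this. In wild type Mmp2 (28.1 ± 5.80 CPM per kb) was highest, followed by Mmp14 (16.3 ± 3.18), Mmp3 (4.07 ± 1.66) and Timp1 (3.85 ± 0.635; all SD, n = 2). The libraries of Mmp2 and Mmp14 did not overlap, and those of Mmp3 and Timp1 did. Mmp9, Mmp11, Mmp12 and Mmp8 followed, each overlapping the next, then Mmp10, and Mmp13 at 0. In the libraries labelled knockout the order was Mmp2 (280 ± 12.6 CPM per kb), Timp1 (108 ± 2.86), Mmp14 (81.2 ± 5.36) and Mmp3 (19.7 ± 7.53), and only the last is not separated from its next lower neighbour. Mmp3, Mmp13, Mmp11, Mmp12 and Mmp10 each overlapped the next, and Mmp8 and then Mmp9 came last. Mmp9 went from rank 5 in wild type to rank 10, Timp1 from 4 to 2 and Mmp13 from 10 to 5.

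Mmp2 and Mmp14 made up most of the summed level of the 9 metalloproteases described, in both groups. Together they held 86.9% and 84.3% of the summed level per kb of the 9 metalloproteases in WT 1 and WT 2, and 81.9% and 88.5% in KO 1 and KO 2. That sum was 53.2 and 50.5 CPM per kb in wild type and 435 and 414 CPM per kb in the libraries labelled knockout. Timp1 formed 3.72% and 5.78% of the 4 Timp genes per kb in wild type and 36.3% and 38.2% in the libraries labelled knockout. The sum of the 9 metalloproteases was 15.6 and 11.7 times Timp1 in WT 1 and WT 2 and 3.95 and 3.90 times Timp1 in KO 1 and KO 2. Against all 4 Timp genes it went the other way, from 0.580 and 0.678 times their sum to 1.43 and 1.49 times. The sum of the 9 leaves out other metalloproteases. In WT 1 and WT 2 Mmp7 stood at 22.9 and 16.0 CPM per kb and Mmp15 at 13.6 and 13.2. In KO 1 and KO 2 Mmp7 stood at 37.7 and 53.2 CPM per kb and Mmp19 at 45.3 and 49.3. Whether metalloproteases or inhibitors were in excess therefore cannot be read from these RNA ratios. They also depend on the merged exon lengths, say nothing of enzyme activity and have no test.

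**Figure D2:**
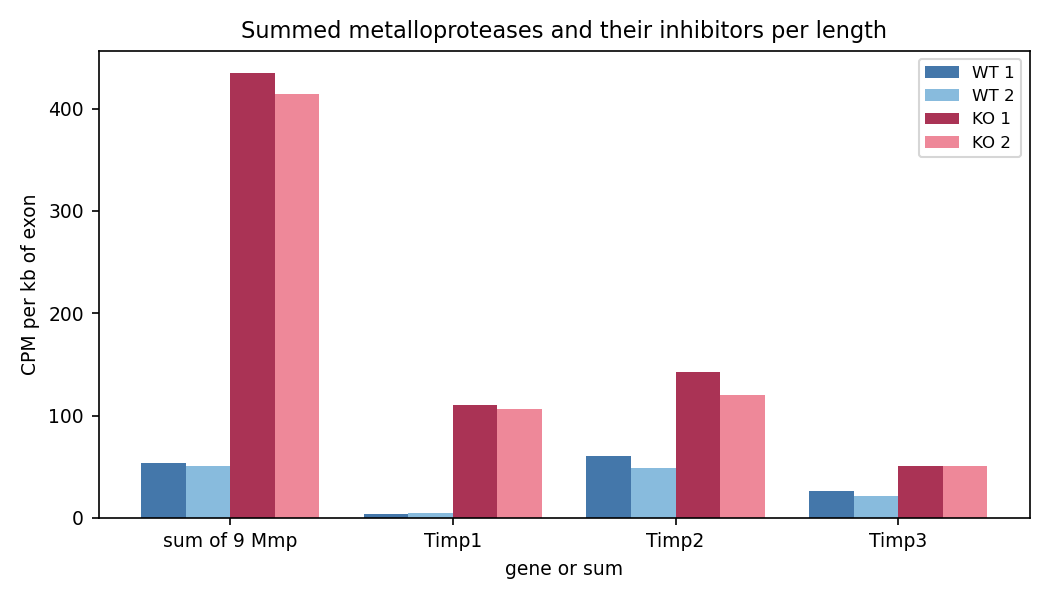
CPM per kb of exon in each library for the sum of the 9 metalloproteases and for Timp1, Timp2 and Timp3, as bars from 0. Timp1 is the lowest of the 3 inhibitors in WT 1 and WT 2 and lies between Timp2 and Timp3 in KO 1 and KO 2.

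The rest of the family did not move as a block. The genes described and this list were chosen with earlier results of these data known. A contrast between them is therefore not a separate result. As above, 22.0% of all genes tested rose and 20.2% fell. Of 18 other metalloproteases and inhibitors 13 were tested, 5 rose (Mmp7, Mmp19, Mmp24, Timp2 and Timp3), 2 fell (Mmp16 and Mmp25) and 6 did not pass, with a median log2 fold change of -0.04. Mmp19, a secreted protease of basement membrane proteins, stood at 10.2 CPM (WT 1), 2.92 CPM (WT 2), 160 CPM (KO 1) and 174 CPM (KO 2). It rose 26.2-fold (edgeR adjusted p = 0.00241), with no overlap between groups. Timp2, which helps MMP14 to activate MMP2, stood at 237 CPM (WT 1), 190 CPM (WT 2), 554 CPM (KO 1) and 469 CPM (KO 2) and rose 2.40-fold (edgeR adjusted p = 0.000883). Timp3, which stays bound to the matrix, stood at 215 CPM (WT 1), 172 CPM (WT 2), 413 CPM (KO 1) and 414 CPM (KO 2) and rose 2.14-fold (edgeR adjusted p = 0.00125). Per length both stood above Timp1 in wild type, Timp2 at 60.9 and 48.7 and Timp3 at 26.4 and 21.1 CPM per kb, against 3.40 and 4.30 for Timp1. Mmp15, a membrane-anchored relative of Mmp14, read 73.4, 71.5, 49.5 and 90.6 CPM in WT 1, WT 2, KO 1 and KO 2, without passing (log2 difference of -0.04, edgeR adjusted p = 0.914). Mmp16, another of that kind, fell from 3.30 and 4.50 to 0.805 and 0.486 CPM (log2 fold change -2.58, edgeR adjusted p = 0.0108). Mmp25, a lipid-anchored protease known from leukocytes, fell from 5.22 and 9.44 to 1.41 and 1.46 CPM (log2 fold change -2.34, edgeR adjusted p = 0.00735). Reck, a membrane-bound inhibitor of metalloproteases, stood at 19.5 and 11.9 against 10.5 and 5.67 CPM and did not pass (edgeR adjusted p = 0.0841). Mmp24 and Reck were singled out after their values were seen, the former at 0.275 and 0.450 against 4.23 and 3.72 CPM.

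**Figure D3:**
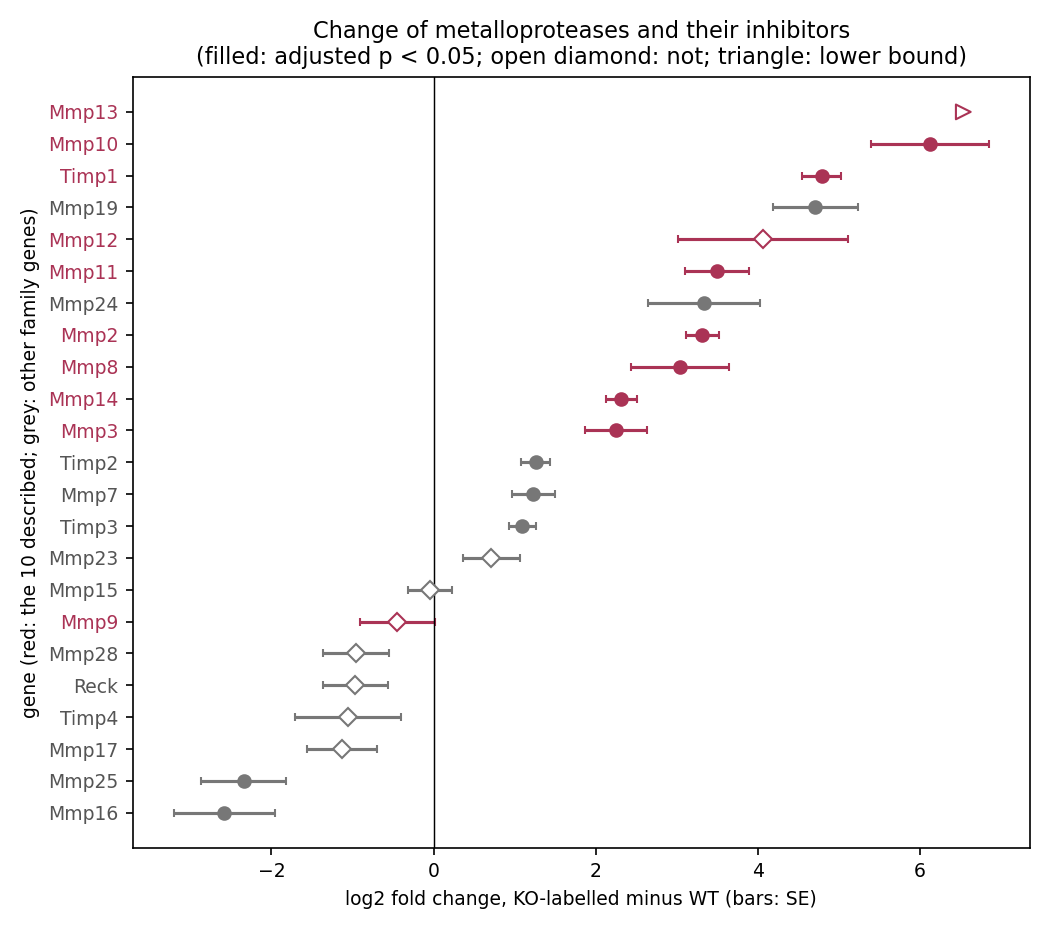
Log2 fold change, knockout-labelled minus wild type, with SE bars, for the 10 genes described (red) and the 13 other family genes that were tested (grey). Filled circles passed and open diamonds did not. Mmp13 is drawn as an open triangle at its lower bound, and 9 of the 10 red symbols lie right of 0.

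The cluster on chromosome 9 split gene by gene. In order along the chromosome it holds Mmp13, Mmp12, Mmp1b, Mmp3, Mmp1a, Mmp10, Mmp8, Mmp27, Mmp20 and Mmp7. Mmp1b, Mmp1a and Mmp20 had 0 counts in all 4 libraries and Mmp27 had 0, 2, 0 and 1. Mmp1a and Mmp1b are similar copies, so reads that fit both may have been dropped. Mmp20 serves tooth enamel. Mmp7, matrilysin, known from epithelial cells, had 89 and 76 counts in WT 1 and WT 2 and 200 and 351 in KO 1 and KO 2. Per length it was the highest cluster gene in wild type (19.4 ± 4.88 CPM per kb, SD, n = 2). It rose 2.35-fold, from 24.5 and 17.1 to 40.2 and 56.8 CPM (edgeR adjusted p = 0.00665). Undetected genes therefore lay between genes that rose. The other 3 gene models in the stretch had at most 1 count in a library. The Mmp12 model overlaps Mmp1b on the opposite strand, which had no counts.

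**Figure D4:**
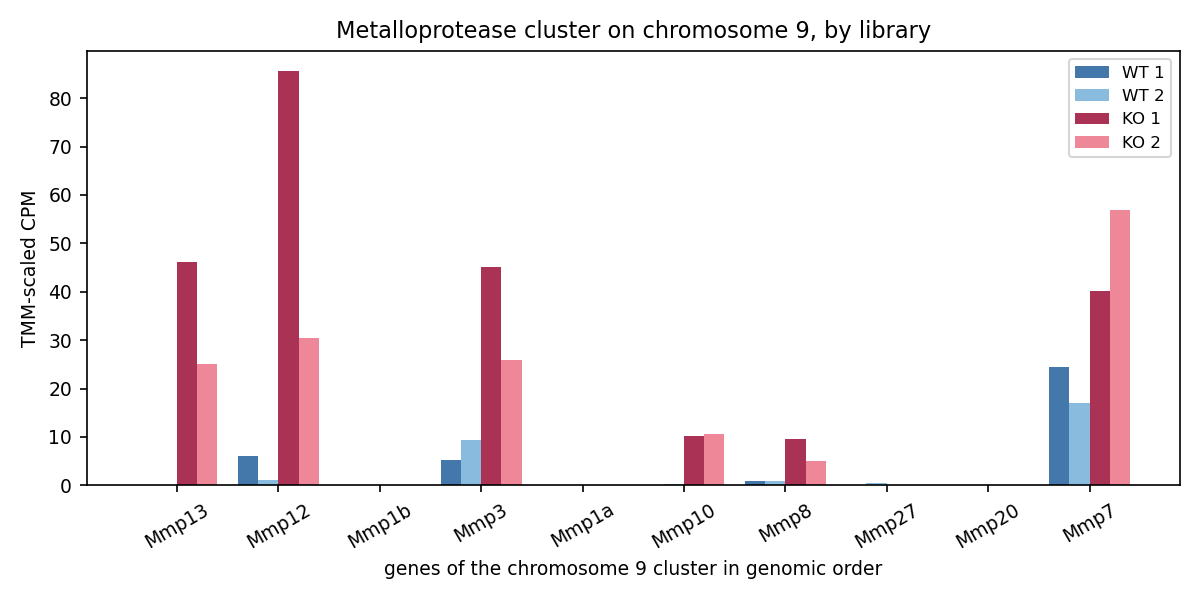
TMM-scaled CPM of the 10 metalloprotease genes of the chromosome 9 cluster in genomic order, as bars from 0 for each library. Mmp13 and Mmp10 have bars in KO 1 and KO 2 alone apart from 1 count of Mmp10 in WT 2, while Mmp1b, Mmp1a and Mmp20 have none.

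Genes that activate or bind metalloproteases were counted from a list of 27. Of 24 tested, 17 rose, none fell and 7 did not pass, with a median log2 fold change of 2.06. The list was chosen with earlier results of these data known, and 22.0% of all genes tested rose and 20.2% fell. Of the 4 with the highest mean CPM, Thbs1, a matricellular protein that binds MMP2 and MMP9, rose 6.09-fold (edgeR adjusted p = 5.33e-05) and Lrp1, a receptor that clears metalloproteases and TIMPs, 5.61-fold (edgeR adjusted p = 0.000113). Serpine2, a serpin that inhibits urokinase, thrombin and plasmin, rose 38.8-fold from 25.8 and 22.3 to 1121 and 744 CPM. Bsg, which induces metalloproteases in fibroblasts, stood at 573 and 563 against 936 and 624 CPM and did not pass (edgeR adjusted p = 0.123). Outside the rule for named genes, Plau, the urokinase that makes plasmin, and Furin, the convertase that activates MMP11 and MMP14, were looked at after their values were seen. Plau rose 18.3-fold, from 5.22 and 9.89 to 108 and 173 CPM (edgeR adjusted p = 0.000244). Furin rose 6.38-fold, from 48.9 and 56.0 to 275 and 394 CPM (edgeR adjusted p = 5.28e-05). Plg, which encodes plasminogen and is made mainly in the liver, had 611 counts in WT 1, 11 in WT 2 and 0 in KO 1 and KO 2, and it did not pass.

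Known substrates and matrix partners rose in most cases. Of 29 tested among 30, 25 rose, 2 fell and 2 did not pass, with a median log2 fold change of 2.25. This list too was chosen with earlier results known, and 22.0% of all genes tested rose and 20.2% fell. Fibronectin (Fn1) rose 14.4-fold, osteopontin (Spp1) 12.9-fold, and the type I collagen chains Col1a1 and Col1a2, which MMP13, MMP8 and MMP14 cut, 6.71-fold and 5.68-fold. Those that fell were Col17a1, a hemidesmosome collagen, with a log2 fold change of -2.71 (edgeR adjusted p = 0.0113), and Cxcl12, a chemokine that several metalloproteases inactivate, with -2.41 (edgeR adjusted p = 2.36e-05). The list shares Col1a1, Col1a2, Col3a1 and Dcn with the fibroblast markers and Spp1 with the duct markers.

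Transcription factors and cytokines known to act on metalloprotease promoters formed a list of 25, all tested. Of these 18 rose, 2 fell and 5 did not pass, with a median log2 fold change of 1.16. Over all genes tested 22.0% rose and 20.2% fell, and this list was also chosen with earlier results known. The 4 with the highest mean CPM were AP-1 subunits that moved apart. Fosb rose 1.83-fold (edgeR adjusted p = 0.00519), while the log2 fold change of Jun, which fell, was -0.79 (edgeR adjusted p = 0.0153), and Junb and Fos did not pass (edgeR adjusted p = 0.331 and 0.346). Ets1 also fell, from 473 and 485 to 129 and 160 CPM, a log2 fold change of -1.73 (edgeR adjusted p = 0.00013).

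Markers of cells that can make these proteases differed between the groups, and their part in the results was not tested. Of 14 fibroblast and stellate cell markers 10 rose, Thy1 and Des fell, and Dcn and Dpt did not pass. Their summed level was 4377 CPM (WT 1), 3932 CPM (WT 2), 18103 CPM (KO 1) and 12126 CPM (KO 2). Of 8 mesothelial markers 6 were tested, of which Msln and Wt1 rose, and Upk3b, Lrrn4, Gpm6a and Muc16 did not pass. The list summed to 26.4 and 18.7 against 332 and 287 CPM, most of the latter Msln, at 285 and 266 CPM in KO 1 and KO 2. Without Msln the other 7 markers summed to 21.4 and 10.3 against 47.7 and 21.2 CPM, and the groups overlapped. Duct markers summed to 2121 and 2613 CPM in wild type and to 15262 and 15431 CPM in the libraries labelled knockout. All 9 tested T and NK cell markers, 8 of 8 B cell markers and 7 of 8 endothelial markers fell. B cell markers summed to 1498 and 1263 against 96.4 and 37.9 CPM, and endothelial markers to 1281 and 1217 against 587 and 578 CPM. Of 11 tested acinar markers Bhlha15 and Amy2a5 fell and 9 did not pass.

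**Figure D5:**
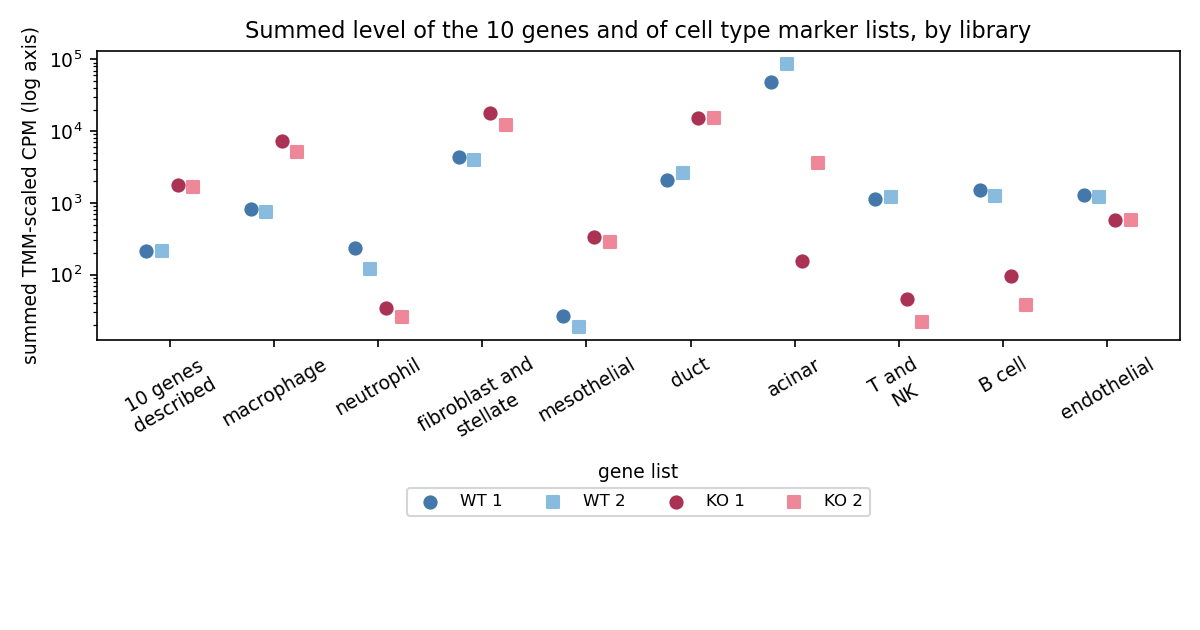
Summed TMM-scaled CPM (log axis) of the 10 genes described and of 9 marker lists in each library. The sums of the 10 genes and of the macrophage, fibroblast and stellate, mesothelial and duct lists are higher in KO 1 and KO 2, and those of the other 5 lists are lower. The mesothelial sum rests on Msln, without which the groups overlap.

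The genes whose pattern over the 4 libraries was most like that of Timp1, Mmp2 and Mmp14 were found by the root mean square difference of log2(CPM + 1), centred per gene. Nearest to Timp1 were Hs6st2 (0.108), a heparan sulfate sulfotransferase, Bdnf (0.11), a neurotrophin, and Olr1 (0.116), a receptor for oxidized LDL. Nearest to Mmp2 were Rnf149 (0.0218), a ubiquitin ligase, C1qtnf6 (0.0734) and Mfap5 (0.0982), a microfibril protein. Nearest to Mmp14 were Itga5 (0.0268), the fibronectin receptor chain, Dbn1 (0.0386), an actin-binding protein, and F13a1 (0.0454), a transglutaminase chain that macrophages make. Itga5 stood at 84.9 CPM (WT 1), 107 CPM (WT 2), 505 CPM (KO 1) and 462 CPM (KO 2). With 4 libraries in 2 groups, many genes have such a pattern, and these names are a description.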

How the data were processed

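RNA sequencing counts were taken for 4 libraries, 2 per group, grouped by sample title. The authors deposited unnormalized counts of reads for each gene model, with a separate file for every library. Per the labels' protocols, total RNA was made into libraries with a SMARTer Stranded kit. Per the submitters' processing notes TopHat and edgeR were used with build mm10, and no versions are listed. The counting program, annotation and use of strand are not given in the sources, so overlapping models cannot be told apart. The deposited files also give each model's position and length, here called other values per the file headers and not tested. Coordinates are given from 1.

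The test was the quasi-likelihood test of edgeR 4.0.16 under R 4.3.3 (filterByExpr, TMM factors, robust glmQLFit, genotype alone in the model), over 13990 genes with 2 residual degrees of freedom. SE is the log2 fold change divided by the square root of F. Chi-square tests between replicates gave 20.06 (WT) and 19.98 (KO) per degree of freedom, so no library was a copy of another. Merged exon lengths came from GENCODE M21 and promoter sequences from RefSeq (GRCm38.p6). Sequences, lists and genes were chosen with earlier results of these data known. The rule for named genes takes the 10 genes, and from each list the 4 with the highest mean CPM, those that went against the list and, in the family list, the chromosome 9 cluster. It also takes the 3 nearest genes for Timp1 and the 2 highest metalloproteases, with provisional Gm and Rik symbols left out. Alternatives were other scaling, no filter, DESeq2 1.42.0, a replicate block and leaving out each library. A further one, chosen after seeing the data, left the acinar list out of the counts. The procedure was tested on simulated data with the same variation for every gene and changes in few, well-counted genes. Genes with hardly any counts in wild type, such as Mmp10 and Mmp13, were not covered by it.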

Additional observations from a re-analysis of the deposited data

How the results depend on the processing

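The 10 genes kept their direction under all 10 alternatives, and 7 to 9 of them rose under each, with none lower. Mmp8 did not pass without KO 1 (log2 fold change 2.51, edgeR adjusted p = 0.0688). Mmp12 passed with DESeq2 (4.02, DESeq2 adjusted p = 0.00462), where 9 of the 10 genes rose. With the replicate number as a block 9 of the 10 genes rose as well, Mmp12 among them (4.11, edgeR adjusted p = 3.16e-20), and 3466 genes were higher and 3190 lower over all genes, against 3077 and 2832 without it. That fit has fewer residual degrees of freedom than the main fit. Mmp12 was also higher in replicate 1 of both groups (WT 1 over WT 2 5.38, KO 1 over KO 2 2.81), which the block absorbs. Its small adjusted p there is not read as stronger evidence. Same-numbered libraries hardly deviated together (correlation of deviations across genes 0.0485), so the numbers were not taken to pair the samples. Under the other alternatives Mmp12 stayed at adjusted p between 0.06 and 0.213. Over all genes, leaving out a library gave 2265 to 2449 higher and 1867 to 2276 lower, the lowest without KO 2. For the 10 genes it gave 7 to 8 higher and 0 lower. These fits assume that the lone library left in a group varies like the other group. At 3 counts per library, depth limits what can be said of Mmp8, Mmp10 and Mmp13 in wild type.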

Other observations

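The 2 libraries labelled knockout differed from each other in some of the 10 genes and not in others. The ratio of KO 1 to KO 2 in CPM was 2.81 for Mmp12, 1.93 for Mmp8, 1.84 for Mmp13 and 1.74 for Mmp3, all in the chromosome 9 cluster. It was 0.975 for Mmp10, the fifth of these genes in that cluster. It was 1.10 for Mmp14, 1.04 for Timp1, 0.938 for Mmp2, 1.36 for Mmp11 and 0.645 for Mmp9. Of the 9 marker lists, those that summed higher in KO 1 than in KO 2 by more than a few percent were macrophage (7277 and 5117 CPM), fibroblast and stellate (18103 and 12126), mesothelial (332 and 287), neutrophil (34.2 and 26.1), B cell (96.4 and 37.9) and T and NK (46.3 and 21.9). The duct list was nearly level (15262 and 15431 CPM), as was the endothelial list (587 and 578 CPM), and the acinar list was far lower in KO 1 (158 and 3568 CPM). With 1 pair of libraries these ratios have no test, and their relation to the marker lists was not tested.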
